A study of Mus musculus with 6 samples.

Results

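The heat shock chaperones described here are Hsf1 and 9 chaperone genes, chosen by name from textbook members of the response and found through the RefSeq accessions of their probes, with the brightest probe of each gene. They are the gene of the transcription factor HSF1, the HSP70 genes Hspa1a, Hspa1b and Hspa8, the HSP110 gene Hsph1, the HSP90 gene Hsp90aa1, the small heat shock protein gene Hspb1, the co-chaperone gene Bag3 and the mitochondrial chaperonin genes Hspd1 and Hspe1. These are 10 of the 22911 genes that had a probe and 10 of the 16370 genes tested, and each member had a signal well above background in all 6 lungs.

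Heat shock chaperones are proteins that keep other proteins folded, and their genes are switched on together when unfolded protein accumulates, as in heat, oxidative stress or inflammation. The switch is HSF1, a transcription factor that is held inactive by chaperones, is released when they are occupied, forms trimers and binds heat shock elements, which are runs of the letters GAA and their inverse TTC at short spacing. Its best known targets are the cytosolic HSP70 proteins with their HSP110, HSP90 and BAG partners, the small heat shock protein HSP27 and the mitochondrial chaperonin. In the lung these genes are active in epithelium, endothelium and leukocytes alike, so that lung RNA mixes their levels over many cell types.

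The study asked what recombinant human thrombomodulin (rhTM) changes in the lung during endotoxaemia. Thrombomodulin is a protein of the endothelial surface that turns thrombin into an activator of the anticoagulant protein C. All 6 mice were male C57BL6 mice, 10 weeks old, starved for 16 h and then injected i.p. with bacterial lipopolysaccharide (LPS, endotoxin) at 20 mg/kg. The control group received saline at 3 and 24 h after LPS (n = 3) and the treated group received rhTM at the same times (n = 3), and lungs were taken at 30 h. Every mouse had thus received LPS, and none of the 6 arrays held a lung without it, so that the values compare rhTM with saline within endotoxaemia and give no measure of how LPS itself moved these genes. The labels count each array as a separate mouse.

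The promoters of the members were searched for the letters of heat shock elements. The members were chosen as textbook members of the response that HSF1 switches on, so matches largely restate that choice. The RefSeq table of promoter windows used here (build GRCm38.p6, 250 bases before to 50 after a transcript start) held 9 windows for 7 of the 10 members, namely Hspa1a, Hspa1b, Hsph1, Hspb1, Bag3, Hspd1 and Hspe1. Each window was searched for a pair of heat shock units facing each other, spelled GAANNTTC or TTCNNGAA, each of which reads the same on both strands. A match was found in 8 of the 9 windows, against 15.1% of the 32851 windows in the table. The 9 windows are not separate, since those of Hspa1a and Hspa1b differed at 4 positions and those of Hsph1 overlapped. One Hspd1 window also shared 285 bases with that of Hspe1. Some matches were thus counted more than once, so this count cannot be compared directly with that share. Each of the 7 genes had a match in at least 1 window, and in 6 of them a match lay before the start. In Bag3 the match lay 42 bases after it. A run of 3 units, GAANNTTCNNGAA or TTCNNGAANNTTC, was found for Hsph1, Hspd1 and Hspe1, and in 0.603% of all windows. The run of Hsph1 lay after the start, and that of Hspd1 and Hspe1, which is a shared stretch, lay before it. Such a match describes letters in a window and is not a measured binding site.

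The 4 stretches below are shown because they hold the matches of the genes whose values are described in most detail, with the matched letters in capitals and each read 5′ to 3′ along the gene's own strand. The first pair is the whole upstream window of the inducible HSP70 genes (Hspa1a, chr17:34972157-34972406, minus strand; Hspa1b, chr17:34959239-34959488, minus strand).
Hspa1a: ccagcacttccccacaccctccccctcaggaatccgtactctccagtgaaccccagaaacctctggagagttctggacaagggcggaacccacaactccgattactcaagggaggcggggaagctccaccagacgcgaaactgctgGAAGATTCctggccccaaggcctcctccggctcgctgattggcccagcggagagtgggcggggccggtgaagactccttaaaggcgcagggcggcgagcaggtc
Hspa1b: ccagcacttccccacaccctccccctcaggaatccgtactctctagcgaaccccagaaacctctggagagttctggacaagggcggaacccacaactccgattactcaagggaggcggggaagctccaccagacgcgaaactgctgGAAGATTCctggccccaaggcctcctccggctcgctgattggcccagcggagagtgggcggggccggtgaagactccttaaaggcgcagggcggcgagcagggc
Over the 300 bases these windows differed at 4 positions, 3 of them before the start, and the match began 104 bases before the start in both. Hspe1 (chr1:55088008-55088107, plus strand, 140 to 41 bases before the start) has overlapping matches that make a run of 4 units.
Hspe1: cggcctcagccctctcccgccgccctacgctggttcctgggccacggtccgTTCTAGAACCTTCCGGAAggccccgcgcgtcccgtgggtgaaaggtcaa
Hspd1 lies head to head with it, and one of its windows shared 285 bases with that of Hspe1 as reverse complements with 0 differences, so that the same run stands before both genes. Hspb1 (chr5:135887769-135887868, plus strand, 150 to 51 bases before the start) has separate matches that begin 117 and 97 bases before the start.
Hspb1: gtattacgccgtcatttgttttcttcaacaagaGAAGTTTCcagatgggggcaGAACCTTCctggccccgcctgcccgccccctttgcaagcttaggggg

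Before the results, some facts of the arrays bear on every member. Between 36243 and 40647 of 56605 probes were well above background on an array, and no probe was saturated. A slide carries several arrays, and here saline replicate 1 shared slide 2 with rhTM replicate 3, with all the others on slide 1. Saline replicate 1 also had a spike-in slope of 0.826, where the other five arrays had 1.07 to 1.09. In the authors' own table of processed values, the columns of saline replicate 1 and rhTM replicate 2 held each other's scanner values (99.945% and 99.925% of probes equal within 0.1%), and nothing in the labels or the methods decides between them. Values below come from the scanner output with its own sample labels, and those of the table follow after them. All 8 defining genes of lung on a list of surfactant, alveolar, club cell and endothelial genes were among the genes tested. Their summed signal was 1637 to 2207 times the 75th percentile of the array with saline and 1606 to 2054 times with rhTM.

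None of the 10 members differed between rhTM-treated and saline-treated lungs by limma with Benjamini-Hochberg adjustment over all genes (adjusted p = 0.9999 for each), beside 0 of 16370 genes in all (0%). At an unadjusted p under 0.05, 0 members stood beside 306 genes (1.87%). By means of log2 values, 5 members were higher with rhTM and 5 were lower, where 50.7% of all genes were higher. The median difference of the members was 0.03 on the log2 scale, where that of all genes was 0.0026. In none of the 10 did all rhTM arrays lie above or below all saline arrays, whereas 5.52% of all genes had groups without overlap. Values below are signals as multiples of the 75th percentile of the array, which sets the arrays on 1 scale. Group means ± SD are arithmetic means of these multiples, whereas differences and ratios come from means of log2 values, so that they can depart slightly from the means beside them. A level of one gene cannot be set against that of another, because probes differ in brightness. In lung RNA, fewer cells of a type and less RNA per cell cannot be told apart.

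**Figure D1:**
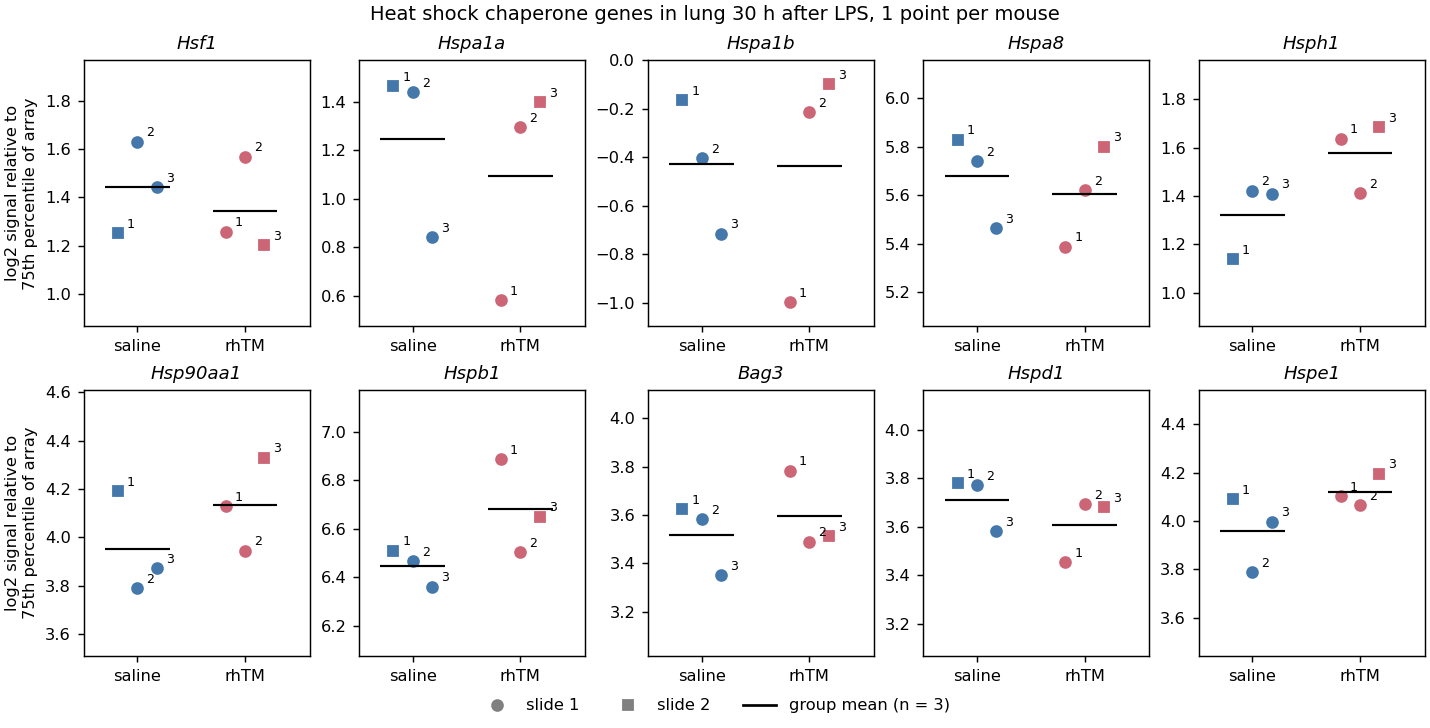
Signal of each heat shock gene in the lung of each mouse, as log2 relative to the 75th percentile of the array (vertical axis, of the same span but a different start for each gene), for saline-treated and rhTM-treated mice. Points are single mice with their replicate numbers, circles lie on slide 1, squares on slide 2, and lines are group means (n = 3); the groups overlap for all 10 genes, and rhTM replicate 1 is the lowest array for Hspa1a, Hspa1b, Hspa8 and Hspd1 and the highest for Hspb1 and Bag3.

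Hsf1, the master regulator, had a signal of 2.38, 3.1 and 2.72 in saline replicates 1, 2 and 3, and of 2.39, 2.96 and 2.30 in rhTM replicates 1, 2 and 3. The groups overlapped almost completely, with saline replicate 2 highest and rhTM replicate 3 lowest. Group means were 2.73 ± 0.357 with saline and 2.55 ± 0.359 with rhTM (SD, n = 3). The difference was -0.10 on the log2 scale (SE 0.16, 95% confidence interval -0.48 to 0.28), with p = 0.6 by an exact permutation test (two-sided). With 3 mice against 3, this test reaches 0.1 at the lowest.

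Hspa1a and Hspa1b encode the stress-inducible cytosolic HSP70, with nearly the same protein product, and whether a probe keeps such near-identical genes apart is uncertain. Hspa1a had a signal of 2.76, 2.71 and 1.79 in the saline replicates and of 1.5, 2.46 and 2.64 in the rhTM replicates. Each group thus had a low mouse, saline replicate 3 and rhTM replicate 1, while the other four lay between 2.46 and 2.76. Hspa1b had a signal of 0.893, 0.756 and 0.609 with saline and of 0.501, 0.862 and 0.933 with rhTM. The same pair of mice was lowest, and rhTM replicate 3 was highest.

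Group means of Hspa1a were 2.42 ± 0.547 with saline and 2.20 ± 0.613 with rhTM (SD, n = 3). On the log2 scale the difference was -0.16 (SE 0.27; p = 0.5, exact permutation test), which is a ratio of 0.897 between geometric means (95% confidence interval 0.572 to 1.41). For Hspa1b the means were 0.753 ± 0.142 and 0.765 ± 0.232, so that the arithmetic mean was slightly higher with rhTM while the difference of log2 means was -0.0099 (SE 0.27, interval -0.65 to 0.63; p = 1.0, exact permutation test). These wide intervals reflect the spread within groups. The within-group SD was 0.40 log2 units for each of these genes, above that of 84.2% of all genes for Hspa1a and of 83.7% for Hspa1b, where the median gene had 0.21. Without rhTM replicate 1 the log2 difference turned to 0.10 for Hspa1a and to 0.27 for Hspa1b.

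Hspa8 encodes HSC70, the constitutive HSP70 that folds new proteins and uncoats clathrin vesicles. Its signal was 56.8, 53.5 and 44.1 with saline and 41.8, 49.2 and 55.7 with rhTM. The order of the mice resembled that of the inducible genes, with rhTM replicate 1 and saline replicate 3 lowest, and the groups overlapped. Means were 51.5 ± 6.6 and 48.9 ± 6.95 (SD, n = 3), and the log2 difference was -0.07 (SE 0.16, interval -0.46 to 0.31; p = 0.6, exact permutation test). It was 0.03 without rhTM replicate 1.

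Hsph1 encodes HSP110, which exchanges the nucleotide of HSP70 and helps it to dissolve aggregates. Its signal was 2.20, 2.68 and 2.66 with saline and 3.11, 2.66 and 3.21 with rhTM. Replicates 1 and 3 of rhTM were the highest arrays and saline replicate 1 the lowest, while rhTM replicate 2 lay among the saline mice. The mean difference was 0.25 log2 units (SE 0.14, interval -0.08 to 0.59), which is a ratio of 1.19 between geometric means. The exact permutation test gave p = 0.2. The difference was 0.11 among the arrays of slide 1 and 0.54 between the 2 arrays of slide 2.

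Hsp90aa1, the inducible cytosolic HSP90 that matures kinases and steroid receptors, had a signal of 18.3, 13.8 and 14.6 with saline and of 17.5, 15.4 and 20.1 with rhTM. Its highest array was rhTM replicate 3 and its next saline replicate 1, both of slide 2, and the other two saline mice were lowest. Means were 15.6 ± 2.36 and 17.7 ± 2.36 (SD, n = 3). The log2 difference was 0.18 (SE 0.16, interval -0.21 to 0.57; p = 0.3, exact permutation test). It was 0.21 within slide 1 and 0.14 within slide 2, so the sign was the same on both.

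Hspb1 encodes HSP27, a small heat shock protein that holds unfolded proteins and guards actin filaments. Its signal was 91.1, 88.4 and 82.2 with saline and 118, 90.8 and 100.4 with rhTM. Replicates 1 and 3 of rhTM were highest, and rhTM replicate 2 lay just under saline replicate 1. Means were 87.2 ± 4.57 and 103 ± 14.1 (SD, n = 3), and the log2 difference was 0.24 (SE 0.14, interval -0.09 to 0.57; p = 0.2, exact permutation test). Without rhTM replicate 1 it was 0.13, and with quantile normalisation of all 6 arrays 0.12.

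Bag3, the co-chaperone that couples HSP70 to small heat shock proteins and to autophagy, had a signal of 12.3, 12.0 and 10.2 with saline and of 13.8, 11.2 and 11.4 with rhTM. Only rhTM replicate 1 lay above all saline mice. The log2 difference of 0.08 (SE 0.14, interval -0.26 to 0.41; p = 0.6, exact permutation test) was 0.17 within slide 1 and -0.11 within slide 2. Without rhTM replicate 1 it was -0.02.

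Hspd1 and Hspe1 encode HSP60 and HSP10, the barrel and the lid of the mitochondrial chaperonin, and share the promoter run printed above. Hspd1 had a signal of 13.7, 13.7 and 12.0 with saline and of 10.9, 12.9 and 12.8 with rhTM, with rhTM replicate 1 lowest. Hspe1 had a signal of 17.0, 13.8 and 16.0 with saline and of 17.2, 16.7 and 18.3 with rhTM, with saline replicate 2 lowest. The rhTM mean of Hspd1 was lower by 0.10 log2 units (log2 difference -0.10, SE 0.13, interval -0.41 to 0.21; p = 0.5, exact permutation test) and that of Hspe1 was higher by 0.16 (SE 0.13, interval -0.14 to 0.47; p = 0.2, exact permutation test). Neither was called, and the difference between them was not tested. Both varied little within groups, with an SD of 0.12 log2 units that exceeded that of only 20.2% of all genes for Hspd1 and 18.6% for Hspe1.

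Across the 10 members the arrays did not order themselves by treatment. Hspa1a, Hspa1b, Hspa8 and Hspd1 were lowest on rhTM replicate 1, and Hspb1 and Bag3 were highest on it. For the other members it was neither. The share of all genes that were lowest or highest on this array was not counted, so these places cannot be called particular to the members. Relative to the mean of the 6 arrays, rhTM replicate 1 was at -0.59 log2 units for Hspa1a, -0.57 for Hspa1b, -0.25 for Hspa8 and -0.21 for Hspd1, and at 0.33 for Hspb1 and 0.23 for Bag3. These places on rhTM replicate 1 were the same under normexp background correction, quantile normalisation, no scaling and scaling on detected probes (without scaling rhTM replicate 1 was highest for Hsph1 too). The array with the most highest values was rhTM replicate 3, for Hspa1b, Hsph1, Hsp90aa1 and Hspe1, but without scaling it was highest only for Hsp90aa1.

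Other gene lists were high on the same mouse. The mean of 11 immediate early genes, which respond within minutes to stimulation, was 0.46 log2 units above the mean of the 6 arrays on rhTM replicate 1 and between -0.22 and -0.01 on the others. On that mouse the mean of 7 tested neutrophil markers of 8 was 0.43, of 5 tested erythroid markers of 8 it was 0.67 and of 8 ciliated cell markers it was 0.57. The ciliated cell markers varied over the other rhTM mice too, at -0.63 on rhTM replicate 2 and 0.39 on rhTM replicate 3. The summed signal of the immediate early genes was 149.9 to 161 with saline and 148 to 219 with rhTM, with rhTM replicate 1 highest. That of the neutrophil markers was 792 to 958 and 810 to 1062, of the erythroid markers 602 to 785 and 599.5 to 878, and of the ciliated cell markers 41.1 to 45.5 and 31.3 to 63.7. Such sums follow their brightest genes. On rhTM replicate 1, S100a8 and S100a9 stood at 305 and 527 of the neutrophil sum of 1062. Hba-a1 and Hbb-bt stood at 606 and 260 of the erythroid sum of 878 there. Muscle markers were instead highest on saline replicate 1, where the mean of the 8 was 0.64, and 0 of the 8 were higher with rhTM (median -0.35), a direction that turned in the authors' table, where 6 of the 8 were higher (median 0.19). The part of these lists in the levels of the heat shock genes was not tested.

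**Figure D2:**
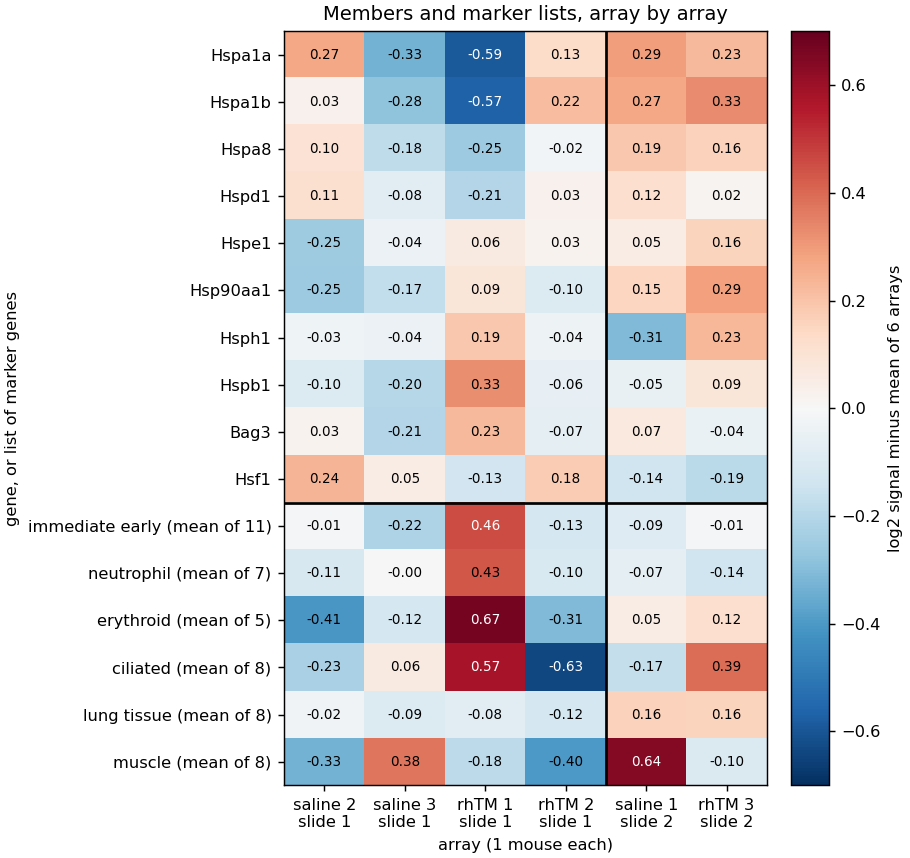
Log2 signal of each member (upper rows) and mean over each list of marker genes (lower rows) minus the mean of the 6 arrays, one column per mouse with slide 1 on the left and slide 2 on the right; red is above and blue below that mean. On rhTM replicate 1, Hspa1a stands at -0.59 and Hspa1b at -0.57 while the immediate early genes stand at 0.46 and the erythroid markers at 0.67.

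The genes closest to Hspa1a were sought among all 16369 other genes tested, by the root mean square difference of mean-centred log2 values over the 6 arrays. The 3 closest outside the members were Fanci, a DNA repair gene (0.0620), Cdca7, a gene of dividing cells (0.0649), and Tlnrd1, which encodes a talin-related protein (0.0660). Hspa1b came at place 45 with 0.116, Hspa8 at place 435 with 0.183 and Hspd1 at place 1252 with 0.229. Hsph1 and Hspb1, at 0.44 each, came at places 10869 and 10824. The measure describes 6 arrays and many genes were as near by it as the other heat shock genes.

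Where a gene had several probes, these were compared as a check of its pattern. All 4 Hspa8 probes were lowest on rhTM replicate 1 and had a lower rhTM mean, with log2 differences of -0.07, -0.27, -0.41 and -0.33 from the brightest to the dimmest, so the probe taken by the rule gave the smallest. The 2 brighter Hsph1 probes gave 0.25 and 0.27, while a dim one, well above background on 1 array, carries no usable value. For Hsp90aa1 they gave 0.18 and 0.12, for Hspd1 -0.10 and -0.15, and for Hspe1 0.16, 0.13 and 0.14. The sign of every gene was thus the same over its probes that were well above background. Hsf1, Hspa1a, Hspa1b, Hspb1 and Bag3 rest on 1 probe each.

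**Figure D3:**
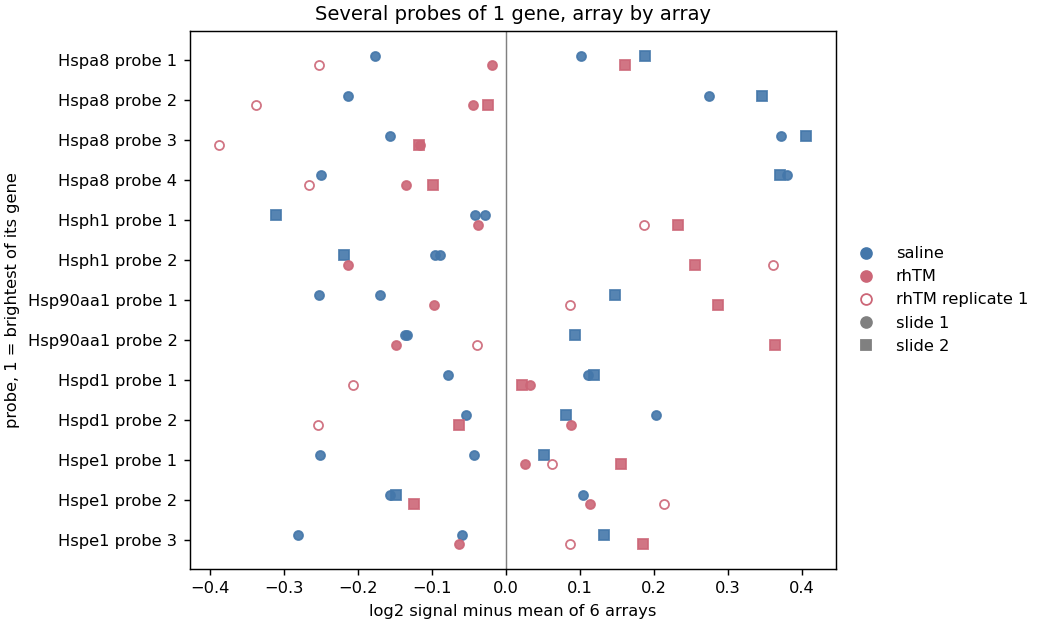
Log2 signal minus the mean of the 6 arrays (horizontal axis) for every probe well above background in all 6 lungs, of the 5 genes with more than 1 such probe; blue is saline, red is rhTM, the open circle is rhTM replicate 1, and squares lie on slide 2. The 4 Hspa8 probes all have rhTM replicate 1 furthest to the left, and the first and last of them differ by -0.07 and -0.33 between the groups.

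In the authors' table, where saline replicate 1 and rhTM replicate 2 are exchanged, the members looked different, and so did the background. No member passed by limma with Benjamini-Hochberg adjustment, beside 0 of 16320 genes (0%), but 14% of all genes reached an unadjusted p under 0.05 and 21.7% had groups without overlap. Of the members, 3 had all rhTM arrays above all saline arrays (9.68% of all genes) and 1 had all below (12%). Hsp90aa1 then had a signal of 15.4, 13.8 and 14.6 with saline and of 17.5, 18.3 and 20.1 with rhTM, a log2 difference of 0.35 (SE 0.10, interval 0.10 to 0.60; limma adjusted p = 0.314). Hsf1 had 2.96, 3.1 and 2.72 with saline and 2.39, 2.38 and 2.30 with rhTM, a log2 difference of -0.31 (SE 0.10, interval -0.54 to -0.07; limma adjusted p = 0.314). In both genes the groups no longer overlapped, and the exact permutation test stood at its lowest possible p, 0.1.

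Hspb1 and Hspe1 were the others with all rhTM arrays above, by 0.24 and 0.18 log2 units (limma adjusted p = 0.427 and 0.482). Hspa1a at -0.04, Hspa1b at 0.02, Hspa8 at 0.06, Hsph1 at 0.07, Bag3 at 0.17 and Hspd1 at -0.04 overlapped. In all, 7 of the 10 members had a higher rhTM mean there, where 46% of all genes did, and their median was 0.07. Slide 2 then carried only rhTM mice, replicates 2 and 3. With the slide as a block, which leaves rhTM replicate 1 as the only array set against saline mice, 432 of 16320 genes passed (2.65%) and 0 members did. The lowest adjusted p among members in that fit was 0.0973, for Hspb1 at 0.44, and Hspa1a stood at -0.61 (adjusted p = 0.170).

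**Figure D4:**
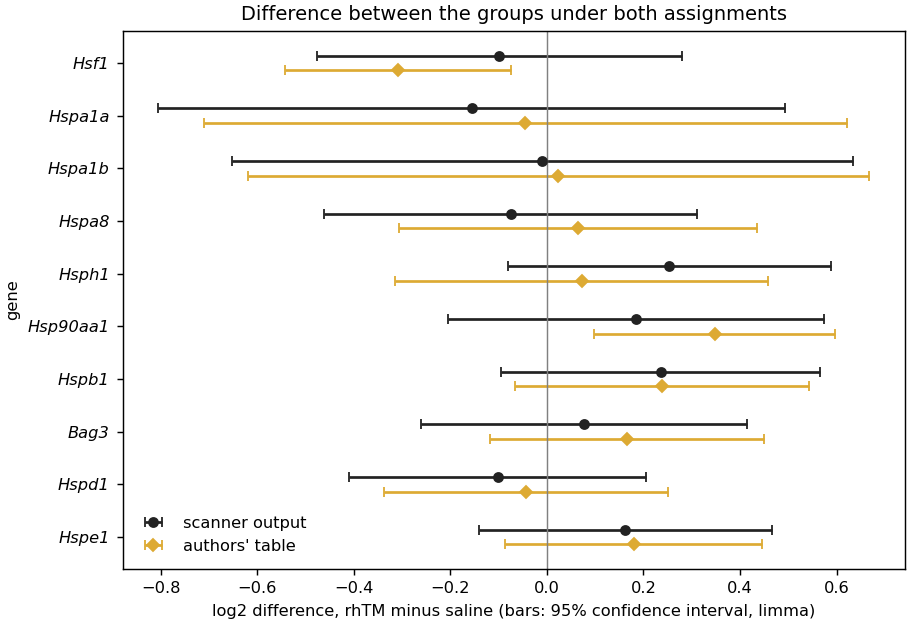
Difference between rhTM-treated and saline-treated lungs for each heat shock gene on the log2 scale (horizontal axis, rhTM minus saline), with 95% confidence intervals from limma (n = 3 per group), by the scanner output (black circles) and by the authors' table with its pair of exchanged arrays (yellow diamonds). Intervals of Hsf1 (-0.54 to -0.07) and Hsp90aa1 (0.10 to 0.60) leave out 0 by the table, and every interval of the scanner output includes 0.

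In the scanner output 233 genes differed between slides at an adjusted p under 0.05 by limma, with treatment in the fit, and no member was among them. Slide 2 minus slide 1 was 0.45 log2 units for Hspa1b (adjusted p = 0.414), 0.39 for Hspa1a (0.510), 0.33 for Hsp90aa1 (0.241), 0.26 for Hspa8 (0.395) and -0.25 for Hsf1 (0.421), each larger than the difference between the groups for the same gene. Each slide held both groups in the scanner output, and with the slide as a block the log2 differences between the groups were the same and 0 members passed. Within slide 1 and within slide 2 they were -0.12 and -0.05 for Hsf1, -0.20 and -0.07 for Hspa1a, -0.05 and 0.06 for Hspa1b, and -0.10 and -0.03 for Hspa8. For Hspb1 they were 0.28 and 0.14, for Hspd1 -0.10 on both and for Hspe1 0.19 and 0.10, so that Hspb1 and Hspe1 were higher with rhTM and Hspd1 was lower on either slide, with 1 array per group on slide 2.

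Among 67 other chaperone genes in 8 lists, which cover the partners of the members, 64 were tested (not Hsf5, Dnajb5 or Hspb3). Of these, 32 were higher and 32 lower with rhTM, though 23 were higher with quantile normalisation, 22 without scaling and 25 with scaling on detected probes. By limma 0 passed with Benjamini-Hochberg adjustment and 0 had an unadjusted p under 0.05. Their median log2 difference was -0.0028. All rhTM arrays lay above all saline arrays for 3 genes (2.95% of all genes): Hdac6 at 0.27, Cct6a at 0.17 and Hspa14 at 0.12, and below them for 1 (2.57%), Hsp90ab1 at -0.06. Without rhTM replicate 1 the difference was 0.13 for Hdac6, 0.13 for Cct6a, 0.12 for Hspa14 and -0.060 for Hsp90ab1. With all arrays, that of Cct6a was 0.067 with its probes averaged, and within slide 2 it was 0.063. Hsp90ab1 is the constitutive partner of Hsp90aa1, and its rhTM mice spanned only 68.7 to 69.2.

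Of the regulators of HSF1 and other heat shock factors, 6 of 7 were higher (median 0.04). The count was 4 of 7 with quantile normalisation, without scaling, without rhTM replicate 1 and by the authors' table. It was 5 with scaling on detected probes and 6 with normexp. The gene with the largest difference was Hsf4, a factor of the lens, at -0.27. Other HSP70 and HSP110 genes were higher in 5 of 8 (median 0.06), with Hspa12b, an endothelial HSP70 relative, at -0.42. The J-domain proteins, which hand clients to HSP70, were higher in 7 of 8 (median 0.04) and spanned the narrowest range, at most 0.09 in Dnajc7. The HSP70 co-chaperones were lower in 7 of 8 (median -0.08), with St13, the HSP70-interacting protein HIP, at -0.20.

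HSP90 and its co-chaperones were higher in 3 of 9 (median -0.06), with Chordc1 at -0.25, and that gene like Hspa1a was lowest on rhTM replicate 1, at 1.29 against 1.93 to 2.34 in the other five mice. The list of other small heat shock proteins was lower in 6 of 7 (median -0.20). The gene that was higher, Hspbap1 at 0.02, encodes a protein associated with HSPB1 and not a small heat shock protein. The largest difference of the list was that of Hspb7, a gene of heart and muscle, at -0.36. Muscle markers were lower in 8 of 8 in the same comparison (median -0.35) but in only 2 of 8 by the authors' table, and their part in these values was not tested. Hspb7 had a signal of 7.03, 9.70 and 9.63 with saline and of 4.82, 12.5 and 5.19 with rhTM, so that an rhTM mouse was both highest and lowest. By the authors' table the groups of Hspb7 did not overlap and the difference was -0.91 (limma adjusted p = 0.314). The cytosolic chaperonin was higher in 4 of 8 (median -0.03), with Cct6a at 0.17, and the other mitochondrial chaperones and proteases in 5 of 9 (median 0.0096), with Trap1, the mitochondrial HSP90, at -0.17. Several of these largest differences rested on which rhTM mouse was included. Without rhTM replicate 1 they were -0.11 for Hspa12b, -0.11 for Hspb7, -0.026 for St13, -0.10 for Hsf4, -0.067 for Trap1 and -0.0075 for Chordc1. Without rhTM replicate 2 they were -0.65 for Hspa12b, -0.80 for Hspb7, -0.37 for St13, -0.44 for Hsf4 and -0.26 for Trap1, and without rhTM replicate 3 that of Chordc1 was -0.39. Counts within lists of small differences moved with the scaling, the arrays and the probes used. Without scaling 5 of 8 J-domain proteins, 2 of 8 cytosolic chaperonin genes and 2 of 9 other mitochondrial genes were higher, the last with a median of -0.023. With quantile normalisation 1 of 9 of HSP90 and its co-chaperones, 2 of 8 chaperonin genes and 2 of 9 mitochondrial genes were. Without rhTM replicate 1, 3 of 8 chaperonin genes and 1 of 9 mitochondrial genes (median -0.027) were higher. With the probes of a gene averaged, 1 of 8 chaperonin genes (median -0.075) and 5 of 9 mitochondrial genes were.

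By the table of the authors, 27 of the 64 genes were higher (46% of all genes), 4 lay above without overlap (9.68%) and 15 below (12%), and 0 passed. None of Hdac6, Cct6a, Hspa14 and Hsp90ab1 was among those without overlap there. With the slide as a block in that table, 1 passed (2.65% of all genes), Hspa12b at -1.08 (limma adjusted p = 0.0367). That fit sets rhTM replicate 1 alone against saline mice. In the table without that array Hspa12b stood at -0.24, but treatment and slide cannot be told apart there.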

How the data were processed

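Lung RNA of 6 mice, 3 treated with saline and 3 with rhTM after LPS, had been labelled with Cy3 and read on Agilent SurePrint G3 Mouse arrays, each mouse on its own. Per the file headers, the deposited scanner files come from Feature Extraction 10.7.3.1 (the submitters' processing notes name version 9.1). Their processed signal is a linear intensity from which the authors' software had removed background and spatial trend, with arrays left unscaled against each other. A deposited table of intensity values holds the same signals, with the exchange of arrays described above. Probes carry accessions, which were matched to RefSeq (32994 of 56605 probes, 22911 genes).

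Spots of a probe were averaged without controls, and 398 probes flagged on every spot of some array were dropped. Each log2 signal was taken relative to the 75th percentile of its array. A probe was kept if well above background throughout a group (36061 probes), and the brightest probe over the 6 arrays stood for its gene (16370 genes). limma 3.58.1 in R 4.3.3 compared the groups (lmFit, eBayes, no covariates, Benjamini-Hochberg over all genes, threshold 0.05). Single genes were also tested by exact permutation. The genes named were all members, in each list of other chaperones those that passed or else the one with the largest absolute difference, and the 3 genes nearest to Hspa1a. The 4 other chaperone genes without overlap were singled out after their values were seen. The members and lists were chosen with earlier results of these data known. Normexp used an offset of 50 and median spot signals. Fits were tested on simulated data. Having 3 arrays per group limits the precision.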

Additional observations from a re-analysis of the deposited data

How the results depend on the processing

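No member passed an adjusted p of 0.05 in any of the 260 alternative values that had a test. The alternatives were normexp, quantile normalisation, no scaling, scaling on detected probes, the authors' table alone and with a slide block, no filter and a stricter one, a slide block, values within each slide (no test within slide 2), a replicate block, averaging the probes of a gene, omitting each array (by either source) or both exchanged arrays, and a t-test. With the t-test 340 genes had a p under 0.05 before Benjamini-Hochberg adjustment and 0 had one after it. At the study's thresholds (fold of at least 2, p under 0.01) it gave 1, Rgs5 at 1.30, and 0 members. Of 270 alternative values of the members, 56 equalled the reported value, nearly all under settings that cannot move it, and of the other 214 there were 188 that kept their direction and 26 that were reversed, 21 of these with an array left out. Reversed log2 differences were 0.024 by the table, 0.064 within slide 2 and 0.010 without both exchanged arrays for Hspa1b, 0.064 by the table for Hspa8, -0.11 within slide 2 for Bag3, 0.0036 with averaged probes for Hsf4 and -0.046 by the table for Dnajc7; the cause was not tested.

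With each array left out in turn, by either source, the log2 difference ranged from -0.36 to 0.24 for Hspa1a, -0.18 to 0.31 for Hspa1b, -0.18 to 0.21 for Hspa8, -0.027 to 0.34 for Hsph1, -0.018 to 0.23 for Bag3, -0.17 to 0.049 for Hspd1, -0.083 to 0.13 for Dnajc7 and -0.39 to 0.12 for Chordc1. By the scanner output alone it kept its sign for Hsf1 (-0.21 to -0.0041), Hsph1 (0.16 to 0.34), Hsp90aa1 (0.086 to 0.30), Hspb1 (0.13 to 0.32), Hspd1 (-0.17 to -0.023) and Hspe1 (0.077 to 0.23). Over all genes, 0 to 561 passed, 561 in the table without rhTM replicate 1, and 432 passed in the table with a slide block, as did 1 other chaperone gene.

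With the replicate number as a block, 0 genes passed by limma and each member had the same log2 difference (Hspa1a -0.16). Deviations of arrays with the same number correlated at -0.30, 0.44 and -0.45, so the numbers did not pair the samples. With 3 arrays per group the intervals are wide, and the dim Hsph1 probe was not read.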
